A study of Drosophila melanogaster with 12 samples.

Results

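The comparison described here asks which genes differ between fly larvae without a working Mlx gene and control larvae when both eat a low sugar diet. It rests on 6 of the 12 RNA sequencing libraries of the study, 3 labelled mlx1 LSD 1.5h and 3 labelled control LSD 1.5h, chosen by those labels alone, and on all 10045 genes that could be tested. Each group has libraries A, B and C. The tested animals were mlx1 mutants of Drosophila melanogaster, and the controls are labelled wild type with no strain name. Both groups were whole third-instar larvae that came from eggs laid over 3 h, had been kept on 10% yeast, moved to a fresh plate of 10% yeast with 0% added sucrose, and frozen 1.5 h later. Diet and hour are therefore equal on both sides. The other 6 libraries, mlx1 and control larvae 8 h after a move to 10% yeast with 20% sucrose, enter the fit for its estimate of spread and serve for a comparison between diets. There is 1 mutant and 1 control line, so the loss of Mlx cannot be told apart from any other difference between these lines. Whole larvae mix all tissues, and fewer cells of a type cannot be told apart from less RNA per cell.

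Mlx is the partner of Mondo, the fly counterpart of the mammalian carbohydrate response element binding protein. The pair binds DNA together and switches on genes when sugar phosphates build up in a cell, among them further transcription factors such as sugarbabe and cabut, and enzymes that turn sugar into fat. In larvae the fat body, a tissue that combines roles of liver and adipose tissue, is a main site of this response, and larvae without Mlx are known to tolerate dietary sugar poorly.

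The 6 libraries held 9657715 to 12507970 counts. Across genes, which are not independent replicates, Pearson's r of log2 CPM (counts scaled to a common library size) was 0.932 to 0.988 between libraries of the same low-sugar group (6 pairs) and 0.918 to 0.972 between the groups (9 pairs). The summed level of 66 cuticle genes, which are made around a moult, was 11100, 28400 and 17800 CPM in mlx1 libraries A, B and C, against 21000, 41300 and 32600 CPM in control libraries A, B and C. Library A was lowest in both groups. The mitochondrial share of the counts was 0.5%, 0.595% and 0.901% in mlx1 and 0.286%, 0.208% and 0.485% in control libraries.

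The mutants held few reads of Mlx, which the table lists under its other name bigmax (3R:23113088-23114248). Part of its first exon entry (23113088-23113441) is also listed under another gene, CG3368. That entry had 0 reads in each of the 3 mlx1 low-sugar libraries, against 64, 73 and 94 reads in the control libraries. The second entry (23113507-23113907) had 0 reads in each mlx1 library, against 119, 137 and 137 in control. By the limit of 3 reads over the group that a count of 0 allows, entries 1 and 2 were at least 84.7-fold and 144.0-fold lower in mlx1. The third entry (23114050-23114248) kept 11, 8 and 5 reads in mlx1, against 73, 64 and 54 in control. Per library size, the control level was 8.751 times that of mlx1 there (95% interval 5.708 to 14, for counting error alone). Over the whole gene the level of bigmax was 0.694 ± 0.201 CPM in mlx1 and 27.0 ± 0.731 CPM in control (SD, n = 3 each), a log2 fold change of -5.24 ± 0.19 (SE, adjusted p = 2.95e-08). The labels of all 6 libraries thus match the reads of the targeted gene.

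Loss of Mlx went with changes in both directions on a diet with little sugar. Of 10045 tested genes, 361 were called at an adjusted p under 0.05 (3.59%), 183 higher in mlx1 (1.82%) and 178 lower (1.77%). The median log2 fold change was 0.88 among the higher and -0.95 among the lower genes, beside 0.006 over all tested genes. A change of at least 1 on the log2 scale was reached by 76 higher (0.757%) and 81 lower genes (0.806%). In all 361 the 3 mlx1 and 3 control libraries did not overlap, which was true of 1872 tested genes (18.6%). The number of calls depends on single libraries and on the spread assumed. It was 201 without mlx1 library C, 180 without control library B, 122 when the 6 low-sugar libraries were fitted alone, and 996 when libraries of the same letter were treated as pairs. That pairing was chosen after seeing these data, so its p-values and counts, here and below, are not independent support.

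**Figure D1:**
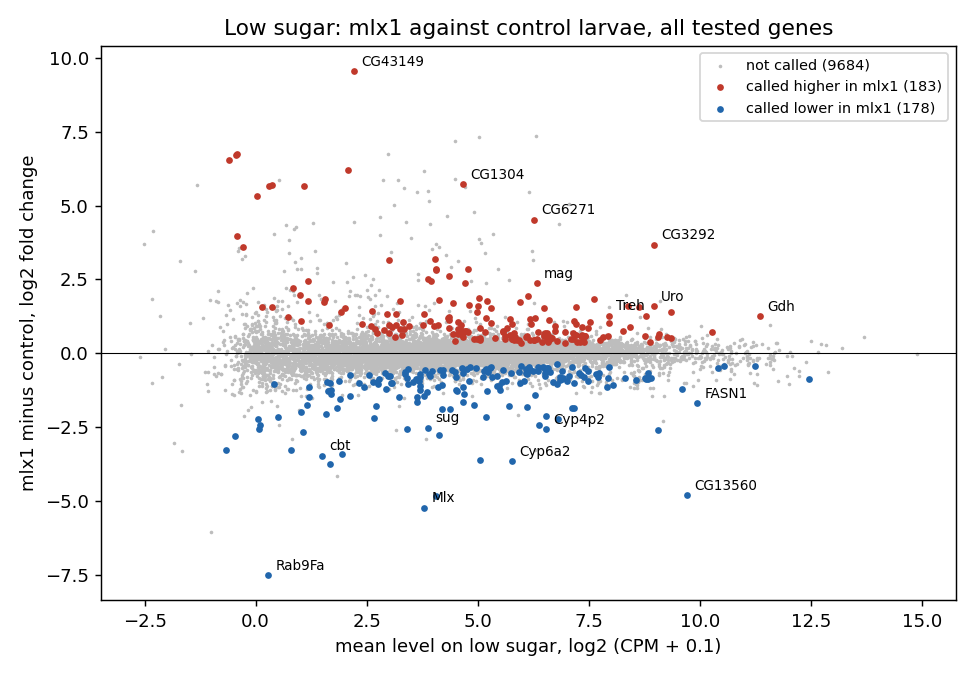
Change against level for the 10045 tested genes on low sugar. The x axis is the mean level of the 6 libraries as log2 (CPM + 0.1) and the y axis the log2 fold change, mlx1 minus control, with 183 genes called higher in red, 178 called lower in blue and the others in grey; Mlx lies among the genes farthest below 0.

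The clearest falls within the sugar sensor's own network were those of Mlx, sugarbabe and cabut. Of the 8 tested members of a list of sensor genes 4 were called, each lower in mlx1 (against 3.59% of all genes), and the list's median log2 fold change was -0.38. Mlx itself is one of them. Sugarbabe (sug, 2R:8812072-8818149), a zinc finger factor that promotes fat synthesis genes, stood at 3.99, 4.41 and 4.55 CPM in mlx1 libraries A, B and C, against 21.7, 27.8 and 25.1 CPM in control libraries. All mlx1 libraries lay far below all control libraries, with a log2 fold change of -2.53 ± 0.11 (adjusted p = 2.13e-07). Cabut (cbt, 2L:476446-479688), a transcription factor that represses sugar-responsive metabolic genes, stood at 0.489, 0.605 and 0.198 CPM in mlx1, against 5.95, 4.57 and 4.47 CPM in control. Its log2 fold change was -3.47 ± 0.32 (adjusted p = 9.65e-05). Both kept their call in all 18 alternatives tried. Mondo, the partner of Mlx (listed as Mio), had a smaller difference, at 106, 120 and 123 CPM in mlx1 and 140, 166 and 179 CPM in control (log2 fold change -0.48 ± 0.12, adjusted p = 0.0482). Its call was lost without mlx1 library A, B or C or control library B or C (adjusted p 0.0639 to 0.171).

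A list of genes reported as targets of the sensor was partly chosen by the study on these samples and is not independent evidence. Of 19 tested targets 10 were called (52.6%, against 3.59% of all genes), each lower, with a median log2 fold change of -0.66. The number was 6 without mlx1 library C. Dawdle (daw, 2L:2805261-2812376), an activin-like ligand that acts as a hormone between fat body and gut, was at 12.7, 14.2 and 13.4 CPM in mlx1 and 29.1, 30.7 and 38.8 CPM in control, with no overlap. This was a log2 fold change of -1.29 ± 0.13 (adjusted p = 0.000184).

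Several enzymes that make fatty acids from sugar fell in mlx1, while the list as a whole was mixed. Of 18 tested fatty acid and triglyceride synthesis genes, 7 were called lower and 2 higher (3.59% of all genes were called), with a median of -0.17 and 7 of the 18 above 0. The lower count was 4 without mlx1 library C or control library A, and the higher count 1 without control library B or C. Fatty acid synthase (FASN1, listed as CG3523, 2L:3056598-3068177) had 527, 359 and 509 CPM in mlx1, against 1752, 1322 and 1454 CPM in control. The log2 fold change was -1.70 ± 0.18 (SE, adjusted p = 0.000302), and the highest mlx1 library was well below the lowest control library. Acetyl-CoA carboxylase (ACC, 2R:3861620-3879367), which makes the malonyl-CoA that fatty acid synthase extends, had 380, 276 and 309 CPM in mlx1, against 704, 517 and 571 CPM in control (log2 fold change -0.89 ± 0.16, adjusted p = 0.00855). The call of ACC was lost in the fit to the 6 low-sugar libraries (adjusted p = 0.0512) and with 1 exon entry a gene.

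Other steps of fatty acid synthesis had smaller differences. The fatty acyl desaturase desat1 had a log2 fold change of -0.67 ± 0.14 (adjusted p = 0.0199), lost without mlx1 library B or C or control library A (adjusted p 0.0533 to 0.0547). Acetyl-CoA synthase (AcCoAS), which makes acetyl-CoA from acetate, had -0.65 ± 0.13 (adjusted p = 0.0201), lost without mlx1 A or C or control A or C (0.0502 to 0.0762). A second fatty acid synthase, listed as v(2)k05816 (FASN2), had -0.72 ± 0.16 (adjusted p = 0.0245), lost without mlx1 C or control A or B (0.0637 to 0.0959). ATP citrate lyase (ATPCL), which makes acetyl-CoA from citrate, was not called, at 225, 141 and 146 CPM in mlx1 and 396, 230 and 226 CPM in control. These groups did not overlap, by a narrow margin. Its log2 fold change was -0.74 ± 0.25 (adjusted p = 0.152). ATPCL was called in 3 of 18 alternatives, with an adjusted p of 0.00414 to 0.338 over the 18 and 0.00878 with letters as pairs.

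The 2 members called higher act elsewhere in the list's pathways. Lipin (Lpin, 2R:4024491-4044159), a phosphatidate phosphatase that makes diacylglycerol, had 192, 283 and 216 CPM in mlx1 and 132, 132 and 120 CPM in control (log2 fold change 0.85 ± 0.13, adjusted p = 0.00369; 0.0992 with the 6 low-sugar libraries alone). Isocitrate dehydrogenase (Idh), an NADP-dependent enzyme, had 38.7, 22.9 and 23.9 CPM in mlx1 and 15.6, 9.33 and 11.5 CPM in control (1.23 ± 0.24, adjusted p = 0.0137), a call lost without control library B (0.0688) or C (0.0589).

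Fatty acid synthesis consumes NADPH, which the pentose phosphate pathway supplies. Of its 7 tested genes 2 were called (28.6%, against 3.59% of all genes), both lower, with a median of -0.37. Glucose-6-phosphate dehydrogenase (Zw, X:19561333-19566386), the first enzyme of the pathway, had 27.1, 25.3 and 22.5 CPM in mlx1, against 55.4, 38.6 and 38.4 CPM in control. Its log2 fold change was -0.82 ± 0.14 (adjusted p = 0.00838), with a lost call in the fit to the 6 low-sugar libraries (0.0879). Phosphogluconate dehydrogenase (Pgd), which makes NADPH later in the pathway, had 169, 131 and 124 CPM in mlx1 and 228, 211 and 212 CPM in control (-0.62 ± 0.12, adjusted p = 0.0179). Without mlx1 library C or control library B the call of Pgd was lost (0.0881 and 0.0586).

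Both enzymes of the glycerol phosphate shuttle, which carries electrons from the cytosol to mitochondria and shares its intermediate with triglyceride synthesis, fell. They are the other lower members of the synthesis list. Mitochondrial glycerol-3-phosphate oxidase (Gpo-1, 2R:11745257-11750260) had 157, 145 and 147 CPM in mlx1, against 378, 318 and 307 CPM in control (log2 fold change -1.16 ± 0.10, adjusted p = 8.26e-05). Its cytosolic partner (Gpdh, 2L:5943643-5948843) had 281, 255.1 and 252 CPM in mlx1, against 482, 434 and 566 CPM in control (-0.91 ± 0.11, adjusted p = 0.000919). The mlx1 libraries lay close together and below all control libraries in both genes. Glycerol kinase (Gk, 3L:1738554-1745421), which makes glycerol phosphate from free glycerol, went the other way, with 122, 96.6 and 107 CPM in mlx1 and 47.1, 40.3 and 54 CPM in control (1.20 ± 0.15, adjusted p = 0.000783). Gk was picked after its values were seen.

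Genes of stored fat divided. Of 20 tested genes for lipid droplets, lipases and beta-oxidation, 2 were called higher and 1 lower, with a median of 0.28. The called share was 15.0%, against 3.59% of all genes. With letters as pairs, 5 were called higher and 2 lower. Perilipin (Lsd-1, 3R:19589579-19592384), a coat protein of lipid droplets, had 84.7, 63.9 and 61.7 CPM in mlx1, against 135, 143 and 134 CPM in control (log2 fold change -0.97 ± 0.14, adjusted p = 0.00242). Jabba (listed as CG42351), which anchors histones on droplets and was picked after its values were seen, also fell (log2 fold change -1.25 ± 0.14, adjusted p = 0.000333). Glutaryl-CoA dehydrogenase (CG9547), an acyl-CoA dehydrogenase of lysine breakdown, had 171, 103 and 126 CPM in mlx1 and 72.4, 50.3 and 62.6 CPM in control (1.11 ± 0.19, adjusted p = 0.00671). The call of CG9547 was lost with the 6 low-sugar libraries alone (0.064). Brummer (bmm), the main triglyceride lipase of the fat body, had 118, 110 and 108 CPM in mlx1 and 57.5, 70.2 and 81.1 CPM in control. Its log2 fold change was 0.69 ± 0.15 (adjusted p = 0.0248), lost without mlx1 A or C or control A or B (0.0622 to 0.0931).

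**Figure D2:**
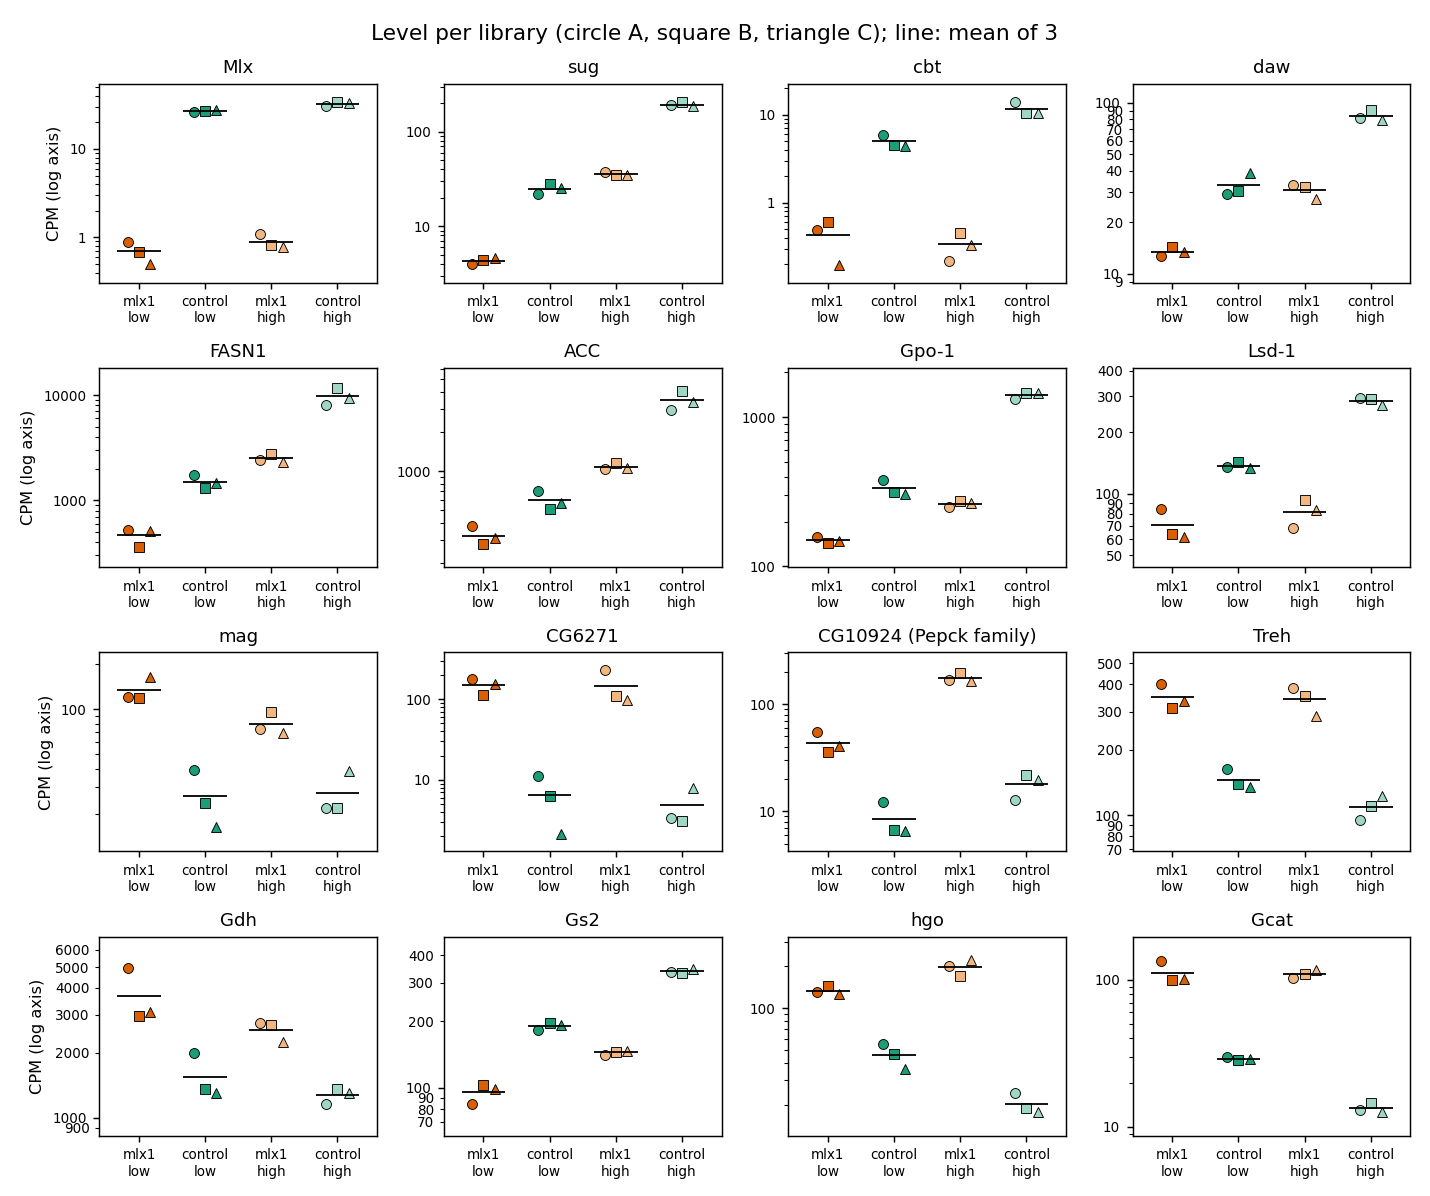
Level of 16 genes in each library, as CPM on a log axis, with libraries A (circle), B (square) and C (triangle) and a line at the mean of 3. In each panel the groups run mlx1 low sugar, control low sugar, mlx1 high sugar, control high sugar; in all 16 the 3 mlx1 and 3 control libraries on low sugar do not overlap.

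Lipases of the gut were the list with the highest median. Of 15 tested digestive lipases 7 were called, each higher in mlx1 (46.7%, against 3.59% of all genes), and the median log2 fold change was 1.55. The count stayed between 6 and 9 over the alternatives. The summed level of the 15 genes was 1380 to 2140 CPM in mlx1 libraries and 367 to 759 CPM in control libraries. Magro (mag, 3L:20453783-20455374), a gut lipase that breaks down dietary triglyceride, had 120, 119 and 165 CPM in mlx1, against 39, 23.4 and 16.3 CPM in control (log2 fold change 2.36 ± 0.33, adjusted p = 0.00365). The largest difference of the list was that of CG6271 (3R:22850690-22851831), with 179, 112 and 155 CPM in mlx1 and 11.1, 6.25 and 2.14 CPM in control (4.52 ± 0.65, adjusted p = 0.00599). The mlx1 libraries were thus higher than any control library by about an order of magnitude.

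Several of these lipase genes are neighbours on 3R. CG6271, CG6277, CG17191 and CG6295 all lie within 1 Mb of Mlx. CG6277 (3R:22847793-22848939) had a log2 fold change of 2.60 ± 0.36 (adjusted p = 0.00301) and CG17191 (3R:22844330-22845473) one of 1.78 ± 0.30 (adjusted p = 0.00944). CG6295 (3R:22831621-22832777) had 1.55 ± 0.36 (adjusted p = 0.046), lost without mlx1 A or C or control B or C (0.0688 to 0.182). Reads shared between near-identical copies could be split unevenly among such genes, which was not tested. Away from this cluster, Lip3 (3R:9195962-9197626) had 40.1, 16.5 and 32.1 CPM in mlx1 and 4.71, 1.79 and 3.21 CPM in control (3.19 ± 0.46, adjusted p = 0.00368). CG31089 (3R:21728365-21729900) had 2.86 ± 0.43 (adjusted p = 0.00459). Beside these results, the summed level of 9 larval midgut marker genes was 1810 to 2110 CPM in mlx1 and 1660 to 1980 CPM in control. By edgeR's test 1 of the 9 was called higher, and the median log2 fold change was 0.44. At an unadjusted p under 0.05, 5 were higher and 2 lower. The 1 call was lost without mlx1 A or C or control A, B or C.

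Among carbohydrate genes the changes were selective. Of 16 tested genes of gluconeogenesis, trehalose and glycogen, 3 were called higher and 3 lower, with a median of 0.1. The called share was 37.5%, against 3.59% of all genes. The gene CG10924 (2R:14414935-14423254), which encodes a phosphoenolpyruvate carboxykinase, the enzyme that commits carbon to gluconeogenesis, had 54.8, 35.5 and 40.8 CPM in mlx1, against 12.2, 6.75 and 6.51 CPM in control. The difference was 2.37 ± 0.28 on the log2 scale (adjusted p = 0.000867). Trehalase (Treh, 2R:16961523-16976450), which splits the blood sugar trehalose into glucose, had 401, 311 and 336 CPM in mlx1, against 163, 140 and 134 CPM in control (1.26 ± 0.15, adjusted p = 0.000584). Fructose-1,6-bisphosphatase (fbp) had 0.57 ± 0.12 (adjusted p = 0.0245), lost without mlx1 A or control B or C (0.0707 to 0.125).

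The 3 lower members of that list act in the making of trehalose and glycogen. Trehalose-6-phosphate synthase (Tps1, 2L:4388327-4392778) had 122, 67.9 and 73 CPM in mlx1 and 192, 140 and 176 CPM in control. The log2 fold change of Tps1 was -0.95 ± 0.20 (adjusted p = 0.0228), lost without mlx1 B or C or control A or C (0.0538 to 0.105). CG5171, of the trehalose phosphatase family, had -0.69 ± 0.13 (adjusted p = 0.0122), lost without mlx1 C (0.0506). The glycogen-binding phosphatase subunit Gbs-70E (listed as CG9238) had -0.87 ± 0.18 (adjusted p = 0.0201), lost without mlx1 B or C or control A or C (0.0526 to 0.0824). The count of lower members was therefore 1 without mlx1 B, control A or control C and 0 without mlx1 C.

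Glycolysis had 1 call among 13 tested genes (7.7%, against 3.59% of all genes), with a median of 0.04. This was hexokinase A (Hex-A), the enzyme that phosphorylates glucose, with 237, 292 and 349 CPM in mlx1 and 181, 199 and 200 CPM in control (log2 fold change 0.60 ± 0.13, adjusted p = 0.0249), a call lost without mlx1 C or control A, B or C (0.0596 to 0.0915). A transporter list had 2 calls among 13 (15.4%). The first was the sugar transporter gene CG10960 (nebu), with 410, 269 and 324 CPM in mlx1 and 196, 139 and 159 CPM in control (1.02 ± 0.17, adjusted p = 0.00477). Its call was lost with the 6 low-sugar libraries alone (0.0576). The other was the amino acid transporter NAAT1 (-0.65 ± 0.15, adjusted p = 0.0376), lost without mlx1 A, B or C or control A or C (0.0754 to 0.123). In the TCA cycle 2 of 15 genes were called (13.3%), both higher, with a median of 0.25. They were CG1544, of the oxoglutarate dehydrogenase family (0.97 ± 0.20, adjusted p = 0.0182), and the succinyl-CoA synthetase subunit gene skap (ScsbetaA; 0.54 ± 0.11, adjusted p = 0.0175). Without control B or C both calls were lost (0.059 to 0.0982), and that of skap also without mlx1 C (0.0622). Of 23 genes of mitochondrial respiration 1 was called (4.3%), the cytochrome c oxidase subunit gene CoIV (-1.01 ± 0.25, adjusted p = 0.0452), lost without any 1 of the 6 libraries (0.0539 to 0.152). The level of CoIV was low, at 2.0, 2.1 and 2.1 CPM in mlx1 and 3.6, 4.3 and 4.5 CPM in control.

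Some enzymes that break down amino acids were higher in mlx1. Of 26 tested genes of amino acid metabolism 7 were called higher and 1 lower, with a median of 0.24 and 16 of the 26 above 0. The called share was 30.8%, against 3.59% of all genes. The higher count was 4 without control library B or C and 1 with the 6 low-sugar libraries alone. Glutamate dehydrogenase (Gdh, 3R:19761680-19768823), which releases ammonia from glutamate, had 4942, 2970 and 3111 CPM in mlx1, against 1996, 1361 and 1304 CPM in control (log2 fold change 1.24 ± 0.21, adjusted p = 0.00641; 0.0809 with the 6 low-sugar libraries alone). Glutamine synthetase (Gs2, X:11316865-11324230), which binds ammonia to glutamate, was the lower member, with 84.5, 103 and 98.3 CPM in mlx1 and 182, 197 and 194 CPM in control (-1.005 ± 0.094, adjusted p = 0.000104). Homogentisate dioxygenase (hgo, 2L:11136393-11138565), of tyrosine breakdown, had 130, 145 and 127 CPM in mlx1 and 55.4, 46.8 and 36.3 CPM in control (1.54 ± 0.17, adjusted p = 0.000373). The tryptophan enzyme cinnabar (cn) had 0.73 ± 0.16 (adjusted p = 0.0251), lost without mlx1 B or C or control B or C (0.0583 to 0.106).

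The remaining higher members of that list act on branched-chain amino acids, whose other enzymes were not counted as a list of their own. The transaminase Bcat (CG1673) had a log2 fold change of 0.66 ± 0.13 (adjusted p = 0.016), lost without mlx1 C (0.0738) or control C (0.058). The dehydrogenase subunits BckdhA (CG8199), BckdhB (CG17691) and Dbct (CG5599) had 0.64 ± 0.12, 0.62 ± 0.11 and 0.59 ± 0.12 (adjusted p = 0.0106, 0.00672 and 0.0151). BckdhA lost its call without control B (0.0614) and Dbct without control B or C (0.0796 and 0.059), while BckdhB kept it without any 1 library but not with the 6 low-sugar libraries alone (0.0742). Mccc2 (CG3267), of leucine breakdown and picked after its values were seen, had 189, 162 and 175 CPM in mlx1 and 112, 106 and 114 CPM in control (0.67 ± 0.10, adjusted p = 0.00292).

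Threonine breakdown had one of the 5 smallest p-values of the comparison. Glycine C-acetyltransferase (Gcat, listed as CG10361, 3L:11792048-11793961) had 134, 99.3 and 102 CPM in mlx1, against 29.7, 28.3 and 28.9 CPM in control (log2 fold change 1.95 ± 0.12, adjusted p = 5.74e-06). Threonine dehydrogenase (Tdh, listed as CG5955), the enzyme before it, was picked after its values were seen. It had 213, 195 and 174 CPM in mlx1 and 94.4, 93.2 and 89 CPM in control (1.07 ± 0.13, adjusted p = 0.000701). Of the 15 tested genes for one-carbon, serine and glycine metabolism 1 was called (6.7%, against 3.59% of all genes). It was sarcosine dehydrogenase (Sardh, listed as CG6385), with 171, 208 and 212 CPM in mlx1 and 125, 126 and 138 CPM in control (0.60 ± 0.10, adjusted p = 0.00672). That call was lost with the 6 low-sugar libraries alone (0.12).

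**Figure D3:**
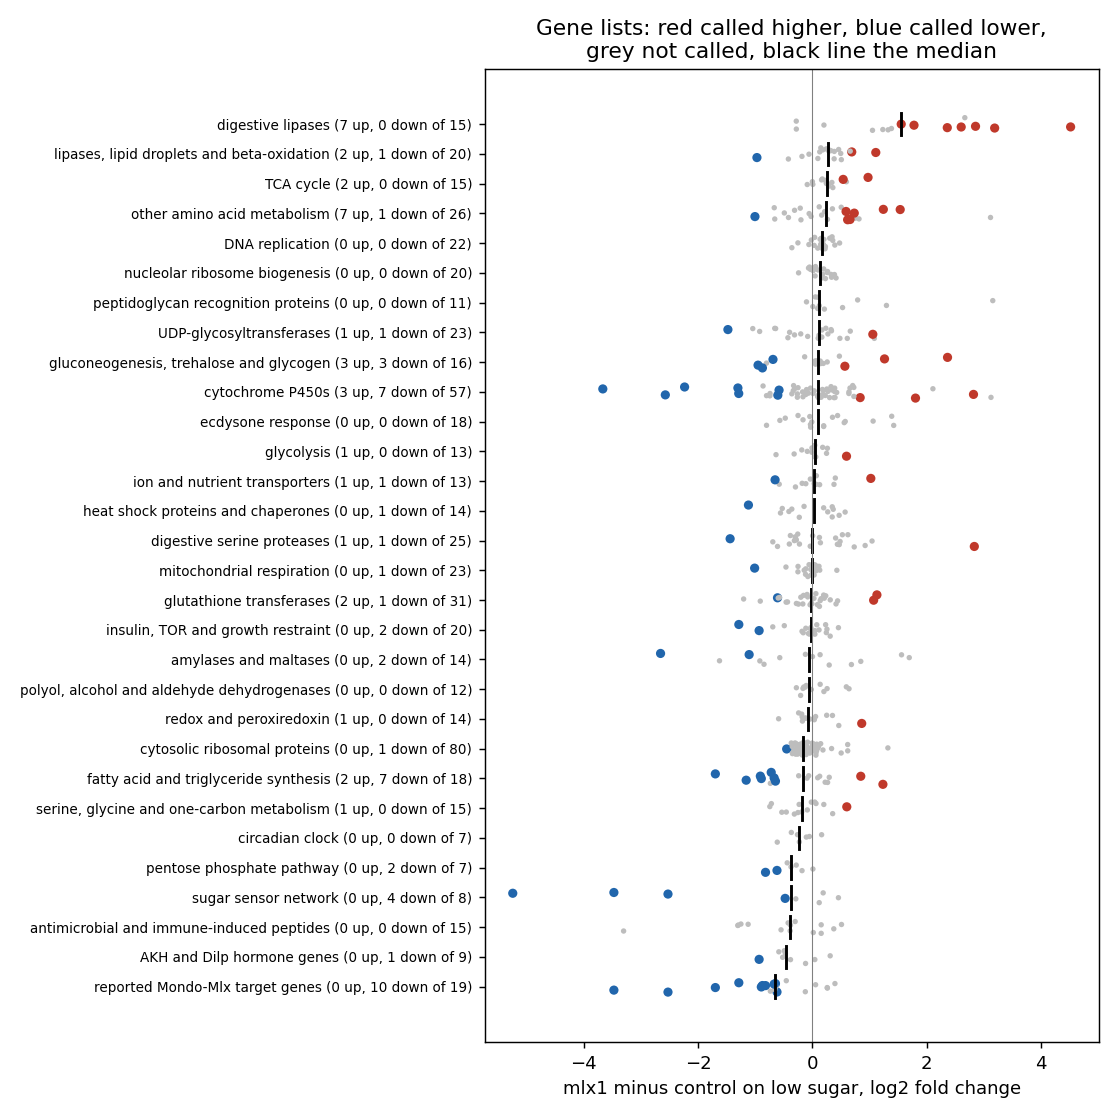
Log2 fold change, mlx1 minus control on low sugar, of each tested member of the gene lists with at least 7 tested genes that are not cell type markers. Red points were called higher, blue points lower and grey points not called, and the black line is the list's median; digestive lipases lie at the top with a median of 1.55 and reported targets at the bottom with -0.66.

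Detoxification genes had large changes in single members. Of 57 tested cytochrome P450 genes, 7 were called lower and 3 higher, with a median of 0.09. The called share was 17.5%, against 3.59% of all genes. The lower count was 4 without mlx1 C, and the higher count was 5 without control A and 1 without control B. Cyp6a2 (2R:2667254-2668996), a P450 known from insecticide resistance, had 4.4, 9.5 and 10.2 CPM in mlx1, against 97, 111 and 97.3 CPM in control (log2 fold change -3.67 ± 0.27, adjusted p = 3.33e-05). Cyp4p2 (2R:5125017-5127336) had 26.3, 26 and 27.5 CPM in mlx1, against 149, 147 and 179 CPM in control (-2.57 ± 0.12, adjusted p = 2.13e-07). The next gene along, Cyp4p1 (2R:5127546-5129644), also fell (-1.29 ± 0.19, adjusted p = 0.00287; 0.0938 with the 6 low-sugar libraries alone), and so did Cyp6a14 (-1.303 ± 0.238, adjusted p = 0.00997; 0.0801 without libraries A of both groups). In the other direction, Cyp6a8 (2R:10774676-10776515) had 31.4, 31.1 and 25.3 CPM in mlx1 and 3.38, 4.17 and 4.86 CPM in control (2.82 ± 0.39, adjusted p = 0.00343; 0.0566 without libraries A of both groups). Its neighbour Cyp6a17 (2R:10761458-10763063) had 1.80 ± 0.32 (adjusted p = 0.0111), lost without control B (0.0611) or libraries A of both groups (0.0621).

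Glutathione transferases and UDP-glycosyltransferases, which conjugate toxins, had 3 calls among 31 (9.7%) and 2 among 23 tested genes (8.7%). Over all genes the called share was 3.59%. GstT3 (X:20338482-20340823) had 25.1, 18.6 and 17.9 CPM in mlx1 and 10.3, 10.6 and 8.35 CPM in control (log2 fold change 1.07 ± 0.17, adjusted p = 0.00409). The other transferases called were GstD3 (1.13 ± 0.24, adjusted p = 0.0245), lost without mlx1 A or control A, B or C (0.0515 to 0.0796), and GstE1 (-0.61 ± 0.12, adjusted p = 0.0181), lost without mlx1 A or control A or B (0.0523 to 0.0591). The only exon entry of GstE1 overlaps an entry of another gene, which may share its reads. Ugt36E1 (listed as CG17322) had 5.54, 4.92 and 4.15 CPM in mlx1 and 17.4, 10.7 and 12.7 CPM in control (-1.48 ± 0.23, adjusted p = 0.00333). CG30438, of the same family, had 1.06 ± 0.23 (adjusted p = 0.0287), lost without mlx1 B or C or control A or B (0.0665 to 0.125). The peroxiredoxin gene Prx2540-2, the 1 call among 14 tested redox genes (7.1%), had 0.86 ± 0.15 (adjusted p = 0.00671, and 0.061 with the 6 low-sugar libraries alone). The small heat shock gene Hsp26, the 1 call among 14 tested heat shock and chaperone genes (7.1%), had -1.12 ± 0.18 (adjusted p = 0.00472, and 0.0772 with those 6 alone).

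Of 25 tested serine proteases of the gut 1 was called higher and 1 lower (8.0%, against 3.59% of all genes), with a median of 0.0. Ser6 (X:20833632-20834532), a serine protease, had 63.3, 33.7 and 48.2 CPM in mlx1, against 10.7, 4.86 and 4.86 CPM in control (log2 fold change 2.83 ± 0.37, adjusted p = 0.00239). Its neighbour CG1304 (X:20835554-20836446), another serine protease gene, had the largest increase that the rule for naming genes picked, with 57.1, 34.5 and 57.9 CPM in mlx1 and 1.74, 0.496 and 0.583 CPM in control (5.72 ± 0.46, adjusted p = 9.19e-05). The trypsin gene iotaTry was lower, with 9.12, 6.05 and 6.92 CPM in mlx1 and 17.5, 16.5 and 26 CPM in control (-1.44 ± 0.19, adjusted p = 0.00119). Among 14 amylases and maltases, which digest starch and sugars, 2 were called (14.3%). Mal-A6 (-1.11 ± 0.27, adjusted p = 0.0474) and Mal-A7 (-2.66 ± 0.56, adjusted p = 0.0261) were called lower. The level of Mal-A7 was low, at 0.49, 0.35 and 0.79 CPM in mlx1 and 3.9, 4.2 and 2.2 CPM in control. With letters as pairs neither Mal-A6 nor Mal-A7 was called (0.078 and 0.0584). The call of Mal-A6 was lost without any 1 of the 6 libraries (0.078 to 0.172), and that of Mal-A7 without any of them but control C (0.0642 to 0.124).

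Among 20 insulin, TOR and growth genes, daw and the insulin-like peptide gene Ilp6 were called (10.0%, against 3.59% of all genes). Ilp6, made in the fat body, had 8.39, 10.3 and 7.71 CPM in mlx1 and 20.6, 17.8 and 12 CPM in control (log2 fold change -0.93 ± 0.20, adjusted p = 0.0256), lost without mlx1 A or C or control A or B (0.069 to 0.112). The translation inhibitor Thor (4E-BP) was not called (-0.69 ± 0.20, adjusted p = 0.0798). Its level was 125, 247 and 199 CPM in mlx1 and 319, 313 and 290 CPM in control. Thor was called in 3 of 18 alternatives, with an adjusted p of 0.018 to 0.328 over the 18 and 0.0263 with letters as pairs. Of 80 cytosolic ribosomal protein genes 1 was called (1.2%), RpL28 (-0.45 ± 0.10, adjusted p = 0.0315), lost without mlx1 A or C or control A or B (0.0771 to 0.129). With letters as pairs 9 of the 80 were called lower and 3 higher, and by DESeq2 11 lower.

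In edgeR's test 0 genes were called in each of 6 lists, namely ribosome biogenesis (20 tested), DNA replication (22), antimicrobial and immune-induced peptides (15), peptidoglycan recognition proteins (11), ecdysone response (18) and circadian clock (7). At an unadjusted p under 0.05 the first had 4 higher genes, DNA replication 1 higher and 1 lower, recognition proteins 1 higher, ecdysone response 2 higher and the clock 1 lower, and the antimicrobial list had 0. DESeq2 called 1 recognition protein gene and 0 in the other 5 lists. With letters as pairs 1 gene was called higher in each of ribosome biogenesis, DNA replication and recognition proteins, and 0 in the other 3 lists. A further list, of polyol, alcohol and aldehyde dehydrogenases (12 tested), also had 0 calls in edgeR's test. It had 2 higher and 1 lower gene at an unadjusted p under 0.05, 2 higher by DESeq2, and 1 higher and 1 lower with letters as pairs. A difference smaller than the spread between libraries would not be detectable here.

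The lists hold 75 of the 361 called genes, and 286 are in none. The most changed of the rest include pairs of neighbours. CG13560 (2R:19635096-19635741) had 25.7, 86.6 and 61.6 CPM in mlx1, against 1172, 1761 and 1970 CPM in control (log2 fold change -4.82 ± 0.58, adjusted p = 0.00242). The nearby gene CG11300 (2R:19639438-19640018) had 136, 140 and 172 CPM in mlx1, against 1099, 866 and 795 CPM in control (-2.62 ± 0.30, adjusted p = 0.000768). Another pair lies on 3L. CG32073 (3L:11100108-11100476) had 11.6, 28.9 and 38 CPM in mlx1 and 131, 144 and 148 CPM in control (-2.43 ± 0.37, adjusted p = 0.00557; 0.0837 with the 6 low-sugar libraries alone). CG12522 (3L:11101335-11101832) had 2.28, 6.91 and 5.64 CPM in mlx1 and 73.3, 71.7 and 37.6 CPM in control (-3.62 ± 0.65, adjusted p = 0.018), lost without mlx1 A or C or control B (0.0626 to 0.0739). In each pair both genes were lower in every mlx1 library. No role is given here for these 4 genes.

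Further lower genes by the same rule were CG7882 (2R:1845126-1847688), of a sugar transporter family, at 2.85, 3.37 and 2.87 CPM in mlx1 and 19.5, 14.9 and 19.9 CPM in control (log2 fold change -2.57 ± 0.16, adjusted p = 5.74e-06), and CG13946 (2L:776536-776892) with -2.79 ± 0.46 (adjusted p = 0.00855). CG1850 had 0.57, 1.99 and 0.791 CPM in mlx1 and 4.51, 54.6 and 37.4 CPM in control (-4.83 ± 1.02, adjusted p = 0.0377), and CG15741 had -2.23 ± 0.43 (adjusted p = 0.0206). The call of CG1850 was lost without mlx1 A, B or C or control B or C (0.0582 to 0.141), and that of CG15741 without mlx1 A or C or control B or C (0.058 to 0.0796). The only exon entry of CG15741 overlaps an entry of another gene, which may share its reads. Picked after their values were seen, Drat (CG1600), an alcohol dehydrogenase-like gene, had 22.8, 39 and 30.1 CPM in mlx1 and 116, 101 and 107 CPM in control (-1.82 ± 0.16, adjusted p = 7.6e-05). Lime (CG18446), a zinc finger factor that links immunity and metabolism, had 9.29, 7.95 and 8.8 CPM in mlx1 and 43, 28.5 and 26.1 CPM in control (-1.91 ± 0.19, adjusted p = 0.000151). The alkaline phosphatase gene Alp4 (Aph-4) had -1.40 ± 0.19 (adjusted p = 0.00145) and the mitochondrial aspartate-glutamate carrier aralar1 -0.83 ± 0.11 (adjusted p = 0.00127).

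Among the higher genes, CG3292 (2R:18091199-18093098), of the alkaline phosphatase family, had 1177, 945 and 681 CPM in mlx1, against 106, 44.6 and 70 CPM in control (log2 fold change 3.67 ± 0.42, adjusted p = 0.00127). The hairpin RNA gene CR32207 (3L:19468730-19471820), a source of small interfering RNAs, had 16.1, 12.5 and 13.8 CPM in mlx1 and 1.33, 1.49 and 1.94 CPM in control (3.15 ± 0.29, adjusted p = 0.000104). CG10814 (2R:9263480-9265236) had 2.51 ± 0.40 (adjusted p = 0.00787). CG16898 (2R:15891125-15892492) had 2.44 ± 0.45 (adjusted p = 0.0181), lost without mlx1 A or C or control A or B (0.0525 to 0.0931).

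A pair of called genes had reads in only one of the lines on low sugar. CG43149 (3L:53873-54751) had 85, 136 and 89 reads in mlx1 and 0, 0 and 0 in control on low sugar, at least 94.0-fold higher by the limit of 3 reads over the group. Rab9Fa (X:10844193-10845063), a gene of the Rab family of small GTPases, had 0, 0 and 0 reads in mlx1 and 22, 23 and 22 in control, at least 24.6-fold lower. On high sugar CG43149 had 65, 85 and 76 reads in mlx1 and 0, 0 and 1 in control, and Rab9Fa 0, 0 and 1 in mlx1 and 15, 11 and 22 in control. Both were picked after their values were seen, and the pattern goes with the line on either diet.

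By chromosome arm, called genes made up 3.24% of those tested on X, 4.35% on 2L, 4.64% on 2R, 2.86% on 3L and 2.85% on 3R. On chromosome 4 6 of 83 were called (7.23%), each higher in mlx1. Within 50 kb of Mlx 2 of 15 other tested genes were called (13.3%), and within 1 Mb 11 of 146 (7.53%). The last count was 7 without mlx1 A or control B. The nearest of them, CG3348 (3R:23117257-23117931), had 38, 65.5 and 79.1 CPM in mlx1 and 156.3, 238 and 261 CPM in control (log2 fold change -1.84 ± 0.29, adjusted p = 0.00555; 0.0728 with the 6 low-sugar libraries alone). The other, CG5987 (TTLL6B), had -0.93 ± 0.22 (adjusted p = 0.0438), lost without mlx1 A or C or control A or B (0.106 to 0.155). The 11 called genes within 1 Mb include the digestive lipase genes CG6271, CG6277, CG17191 and CG6295. Whether the lesion in Mlx itself acts on these neighbours was not tested.

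The summed levels of tissue markers did not overlap between the groups for Malpighian tubules and salivary glands, and overlapped for the other lists. The 4 Malpighian tubule markers summed to 810, 781 and 923 CPM in mlx1, against 368, 298 and 302 CPM in control. Most of this was urate oxidase (Uro, 2L:7780085-7781415), an enzyme of purine breakdown, with 766, 670 and 809 CPM in mlx1 and 318, 218 and 211 CPM in control (log2 fold change 1.59 ± 0.17, adjusted p = 0.000338). The transporter gene Oatp58Db was also called (1.84 ± 0.35, adjusted p = 0.0132), but not without control C (0.059), and the other 2 tubule markers were not called. Salivary gland markers summed to 28, 22.2 and 26.5 CPM in mlx1, against 102, 47.2 and 48.6 CPM in control. Among them Sgs4 had a low level, at 0.41, 0.95 and 0.99 CPM in mlx1 and 1.8, 4.1 and 3.4 CPM in control. The glue gene Sgs4 (-1.99 ± 0.50, adjusted p = 0.0497) and ng2 (-1.75 ± 0.39, adjusted p = 0.0391) were called, and each call was lost without mlx1 A, B or C or control B (0.051 to 0.19), that of Sgs4 without control C (0.118) and that of ng2 without control A (0.0538). Fat body markers summed to 9800, 5350 and 7730 CPM in mlx1 libraries A, B and C and 7400, 4890 and 5880 CPM in control, and muscle markers to 65700, 57600 and 61600 CPM in mlx1 and 65000, 52000 and 45500 CPM in control. Trachea markers summed to 1860, 3800 and 2140 CPM in mlx1 and 2630, 4150 and 3030 CPM in control. Taken letter by letter, the mlx1 library was higher in fat body and muscle markers and lower in trachea and cuticle markers in all 3 pairs. For muscle the A libraries were nearly equal (65700 and 65000 CPM). Only 2 of the 6 fat body markers had enough reads to be tested, with a median log2 fold change of 0.09 and 0 calls. Of 49 tested cuticle genes edgeR called 0, with 9 lower at an unadjusted p under 0.05, a median of -0.58, 2 lower by DESeq2 and 7 lower with letters as pairs. The part of these tissue levels in the results above was not tested.

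The low-sugar effect was then set beside the effect of the same mutation on high sugar, in libraries that share the lines and the fit but no larvae. There 1392 genes were called (13.9%), and high-sugar larvae were collected at 8 h, so diet and hour differ together. A tag in the column names, of unknown meaning, also differs with diet (L2 on low and L3 on high sugar). Of the 183 genes higher on low sugar, 108 were called higher on high sugar too, 10 lower and 65 were not called. Of the 178 lower genes, 93 were called lower, 11 higher and 74 were not called. The 201 genes called the same way are 55.7% of the low-sugar calls and 14.4% of the high-sugar calls. Tested directly, the effect differed between diets in 692 genes (6.89% of those tested), among them 55 of the higher and 62 of the lower low-sugar genes. The count of 692 was 335 without mlx1 low-sugar library C, 290 without control low-sugar B, 271 without mlx1 high-sugar A, 312 without mlx1 high-sugar C and 281 without control high-sugar B.

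The size of the difference between diets varied among members. Mlx and sug had log2 fold changes of -5.18 and -2.44 on high sugar, beside -5.24 and -2.53 on low sugar (differences 0.07 ± 0.25 and 0.09 ± 0.15, adjusted p = 0.95 and 0.752). For cbt it was -5.05 on high sugar beside -3.47 on low sugar, a difference of -1.57 ± 0.50 that did not pass the threshold (adjusted p = 0.0816). For Zw the fold change was -3.28 on high sugar beside -0.82 on low sugar, and the difference of -2.46 ± 0.21 was called (adjusted p = 0.000117). Gbs-70E (CG9238) had -4.22 on high sugar beside -0.87 on low sugar (difference -3.35 ± 0.26, adjusted p = 7.29e-05). Glycerol kinase (Gk) had -0.17 on high sugar, where it was not called, beside 1.20 on low sugar (difference -1.37 ± 0.21, adjusted p = 0.00324). Over lists, the digestive lipases had a median of 2.15 on high sugar beside 1.55 on low sugar, and the pentose phosphate genes -1.9 beside -0.37, with 6 of the 7 differing between diets.

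**Figure D4:**
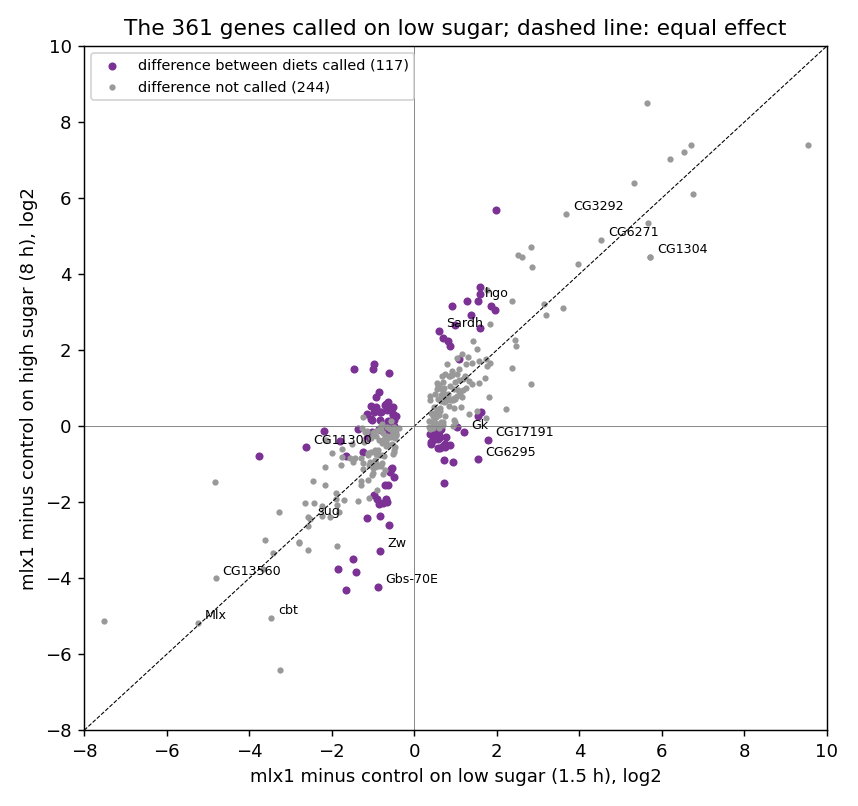
Log2 fold change, mlx1 minus control, on high sugar at 8 h (y axis) against low sugar at 1.5 h (x axis) for the 361 genes called on low sugar. Purple points are the 117 genes whose effect differed between diets by the test and grey points the others; Zw and Gbs-70E lie below the dashed line of equal effect.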

How the data were processed

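The authors deposited 1 table of raw counts, whole numbers of reads per exon for 12 libraries; the submitters' processing notes name SAMtools, BWA 0.5.9 and HTSeq 0.6.1. The sources used here give neither genome build nor annotation nor strand setting, so genes and their antisense or overlapping partners may share reads. Positions are those of the table. Libraries were polyadenylated RNA, per the labels' protocols. The column names also carry number tags and a tag that is L2 in low-sugar and L3 in high-sugar libraries. The meaning of these tags is not given.

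Counts were summed per gene (16413 names, shown as the table gives them). Entries with no gene name held at most 0.0148% of a library. Genes with low counts were removed with filterByExpr, leaving 10045. edgeR 4.0.16 (R 4.3.3, TMM, robust quasi-likelihood, 4 group means, 8 residual degrees of freedom, common dispersion 0.0619) was fitted to all 12 libraries, and the contrast was mlx1 minus control on low sugar. Tests were two-sided, and calls need an adjusted p (Benjamini-Hochberg, all tested genes) under 0.05. The SE was taken as the size of the log2 fold change over the root of F. Levels are TMM-normalized CPM. Since the labels do not name separate cultures, p-values measure the spread between libraries, which may be technical. The test was also run on counts simulated with the common dispersion and independent libraries. That setting lacks the correlated deviations described below, so it does not check the calls made here.

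Deviations from the group means correlated between low-sugar libraries of the same letter (r = 0.744, 0.687 and 0.174 for A, B and C). Of unlike letters on low sugar, mlx1 B with control C had r = 0.388, and the others -0.683 to -0.015. On high sugar the same letters had r = -0.003, 0.342 and -0.348. Letters were also fitted as a replicate block within low sugar, an alternative chosen after seeing the data. The pairing comes from these values, since the labels give the letters alone. Alternatives were DESeq2 1.42.0, other scalings and filters, the 6 low-sugar libraries alone, other exon choices, a cuticle covariate and each library left out.

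Named genes are the 12 largest changes each way among called genes without overlap whose higher group averaged at least 10 CPM, up to 5 members of each described list, called ones first, the 5 smallest p-values, tested genes within 50 kb of Mlx, and 12 sensor and target genes fixed by name; genes marked so, and further called members of a described list, were picked after their values were seen. Genes and lists were chosen with earlier results of these data known. No sequence is printed.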

Additional observations from a re-analysis of the deposited data

Results flagged for a closer look

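In 27 of the named genes the effect of losing Mlx differed between the diets by edgeR's test of the difference itself, which is the high-sugar effect (8 h) minus the low-sugar effect (1.5 h) on the log2 scale. Groups of 3 libraries were not searched for single outlying libraries.

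Several enzymes of fat and NADPH making had a lower fold change on high sugar. No difference was called for the fatty acid synthases CG3523 (-1.95 on high and -1.70 on low sugar, adjusted p = 0.566) and v(2)k05816 (-0.28 and -0.72), or for ACC (-1.69 and -0.89, adjusted p = 0.0545). The difference was -2.18 for ATPCL (-2.92 on high and -0.74 on low sugar), -0.90 for AcCoAS (-1.54 and -0.65), -1.33 for desat1 (-1.997 and -0.669), -2.46 for Zw (-3.28 and -0.82) and -1.99 for Pgd (-2.61 and -0.62). It was -0.998 for Gpdh (-1.91 and -0.91), -1.27 for Gpo-1 (-2.43 and -1.16) and -0.83 for Lsd-1 (-1.80 and -0.97). Further larger falls were those of Aph-4 (-2.44, from -3.84 and -1.40), aralar1 (-1.54, from -2.37 and -0.83), CG5171 (-1.24, from -1.93 and -0.69), CG9238 (-3.35, from -4.22 and -0.87) and CG3348 near Mlx (-1.91, from -3.75 and -1.84).

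Rises were larger on high sugar in CG10361 (Gcat; 1.09, from 3.04 and 1.95), CG5955 (Tdh; 0.70, from 1.77 and 1.07), CG6385 (Sardh; 1.91, from 2.51 and 0.60), hgo (1.75, from 3.29 and 1.54), bmm (1.63, from 2.32 and 0.69) and Uro (1.004, from 2.59 and 1.59).

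A fall on low sugar was smaller on high sugar for CG11300 (2.07, from -0.55 and -2.62), and the sign differed for CG5987 (1.44, from 0.51 and -0.93), GstE1 (0.66, from 0.05 and -0.61), RpL28 (0.72, from 0.27 and -0.45) and Thor (1.47, from 0.78 and -0.69). Low-sugar rises gave way to values below 0 for the digestive lipases CG17191 (-2.13, from -0.36 and 1.78) and CG6295 (-2.43, from -0.88 and 1.55) and for Gk (-1.37, from -0.17 and 1.20). Of these sign changes, the high-sugar value was itself called for Thor alone (adjusted p = 0.0189).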

How the results depend on the processing

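Of the 98 named genes tested, 96 were called, and all 98 kept the sign of their change in every alternative that tested them. Most were tested in all 18 alternatives, and a few, among them Rab9Fa and GstE1, in 17. The call held in every alternative that tested the gene for 44 of the 96. It was lost without some 1 library in 37, and with the 6 low-sugar libraries alone in 44.

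Of the 361 called genes 355 were also called by DESeq2, 357 with the replicate block within low sugar, 356 with a cuticle covariate and 119 in the 6 libraries alone. DESeq2 called 653 genes (337 higher, 316 lower), 124 list members and 1202 differences between diets. The 6 libraries alone gave 122 (56 higher, 66 lower), 94 by at least 1 log2, 34 list members and 3 genes within 1 Mb of Mlx. With letters as a replicate block within low sugar there were 996 (514 higher, 482 lower), 133 list members, 18 genes within 1 Mb and 1678 differences between diets. Apart from Mal-A6 and Mal-A7, no call among the named genes was lost with this block. Over all 12 libraries a block of letters gave 336 genes. The cuticle covariate gave 548 (302 lower) and 1411 differences.

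Leaving out 1 library each gave 180 to 441 genes (77 to 236 higher, 103 to 205 lower), 122 to 175 by at least 1 log2, 47 to 70 list members, 7 to 13 genes within 1 Mb of Mlx, 271 to 1021 differences between diets and a log2 fold change of -5.47 to -5.06 for Mlx. The cause of these moves was not tested, beyond the fewer libraries in such fits. At 9657715 to 12507970 counts a library, genes near 1 CPM rest on about 10 reads, where small changes were not detectable.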
